A study of Mus musculus with 19 samples.

Results

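Hcrt neurons of the Met Sema3e type were the cells of the lateral hypothalamic area (LHA) that expressed the arousal peptide gene Hcrt and whose highest panel score was that of Met, Sema3e, Pde3a, Chst8 and Lmo2. They numbered 283 of the 1068 Hcrt cells that the rule classed, and of 1824 wells in all. Wells labelled LHA were kept when at least 1000 genes were detected and Hcrt took at least 1% of the mouse gene counts. In these cells log1p of the counts per 10000 was turned into a z-score for each gene, the z-scores of 5 genes were averaged for each of 4 panels, and a cell went to the panel with its highest score. The other panels gave 258 cells of the Pth2 type (Pth2, Hspb1, S100a11, Synm and Cbln2), 265 of the Prkch type (Prkch, Cxcl14, Car8, Col18a1 and Ednrb) and 262 of the Gpc3 type (Gpc3, Thbs2, Lgals3, Cd44 and Fbxl21). These names stand for the leading gene of each panel. The 20 panel genes chose the cells, so their levels are given as a description and were not tested in the cells they chose.

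The study picked single cell bodies by hand from the LHA of 7 male mice aged 6 to 8 weeks and made Smart-SCRB libraries, a plate method whose first read holds the barcode of the well together with a unique molecular identifier (UMI). All mice carried Agrp-IRES-Cre, a Cre recombinase under the control of the Agrp gene, and Ai9, a Cre-dependent reporter of the red fluorescent protein tdTomato. The red axons of AGRP neurons marked the borders of the dissected area, and the picked cell bodies were non-fluorescent. All 19 plates of 96 wells belonged to 1 group with no treatment, so Met Sema3e cells were compared with the other Hcrt cells of the same plate.

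Hcrt encodes the precursor of the orexins, also called hypocretins, peptides that promote waking, feeding and reward seeking. Orexin neurons project through most of the brain and release glutamate and dynorphin along with the peptide. MET is the receptor tyrosine kinase of hepatocyte growth factor (HGF) and acts in axon growth and synapse formation. SEMA3E is a secreted semaphorin that binds the receptor PLXND1. PDE3A breaks down cyclic AMP and is inhibited by cyclic GMP. CHST8 adds sulfate to N-acetylgalactosamine on glycoproteins such as pituitary hormones, and LMO2 is a LIM-domain adaptor that binds LDB1 in transcription complexes, known best from blood cell formation.

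The promoters of Met and Sema3e are printed because both genes averaged under 8 CPM in each of the other types, whereas Chst8 and Lmo2 did not. CPM are counts per 1000000 mouse gene counts in the summed cells of a type on a plate. Each sequence runs from 250 bases before to 50 bases after the start given by RefSeq on GRCm38.p6, at chr6:17463707-17464006 on the plus strand for Met and chr5:14025026-14025325 on the plus strand for Sema3e. Capitals mark CANNTG, the E-box motif, which reads the same on both strands.
Met: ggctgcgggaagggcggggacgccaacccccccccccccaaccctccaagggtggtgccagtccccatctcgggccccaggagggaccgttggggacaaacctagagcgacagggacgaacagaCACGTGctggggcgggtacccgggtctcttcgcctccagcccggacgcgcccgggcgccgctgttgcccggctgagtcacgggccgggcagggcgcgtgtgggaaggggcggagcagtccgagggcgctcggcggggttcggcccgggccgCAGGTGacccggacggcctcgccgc
Sema3e: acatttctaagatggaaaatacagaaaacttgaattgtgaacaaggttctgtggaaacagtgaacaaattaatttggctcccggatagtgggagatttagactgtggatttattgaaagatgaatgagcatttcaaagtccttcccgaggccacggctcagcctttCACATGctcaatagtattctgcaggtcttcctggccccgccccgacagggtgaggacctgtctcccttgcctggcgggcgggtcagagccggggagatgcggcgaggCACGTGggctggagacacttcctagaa
Each of these promoters held 2 CANNTG matches, and 72.3% of 32544 promoters of 300 bases in the table held at least 1. The promoter of Chst8 held 0. None of these 3 promoters held TAATTA (5.29% of all promoters) or TGACGTCA (1.80%), searched on both strands. No entry was matched for Pde3a and Lmo2.

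Met Sema3e cells were found on every plate. A plate held 6 to 25 of them, with a median of 16, and they made up 16.2% to 45.2% of its Hcrt cells (26.9% ± 6.95, SD, n = 19 plates). Over all plates the share was 26.5% (exact 95% interval 23.9 to 29.3, counting error only). These shares hold for hand-picked cells and need not be those of the tissue. The median Met Sema3e cell had 40673 UMIs, with 5838 in the shallowest and 120852 in the deepest, and 4991 genes were detected in it at the median (1858 to 7008). The summed UMIs per plate ran from 275638 to 1120161 for Met Sema3e cells and from 1206967 to 3750223 for the other 3 types.

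Met, on chromosome 6 (17463800 to 17573980, plus strand, GRCm38), had 3.40 CPM on the lowest plate, 36.6 CPM at the median and 87.6 CPM on the highest in Met Sema3e cells.  In the other 3 types pooled it had 0 CPM on the lowest plate, 4.38 CPM at the median and 11.5 CPM on the highest. Met Sema3e cells were higher on 19 of 19 plates, but on plates 14 and 18 their level lay within the range of the other cells. By type, Met averaged 38.7 ± 19.8 CPM in Met Sema3e cells, against 2.08 ± 3.62 CPM in Pth2 cells, 2.89 ± 3.21 CPM in Prkch cells and 7.71 ± 7.61 CPM in Gpc3 cells (SD, n = 19 plates each). The means of the 3 lower types differed by less than the SD of the Gpc3 cells.

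Sema3e, on chromosome 5 (14025276 to 14256689, plus strand), had 5.10, 40.8 and 68.5 CPM on the lowest, median and highest plate in Met Sema3e cells. In the other types pooled it had 1.20, 6.19 and 11.5 CPM. Only plate 4 of the Met Sema3e cells fell within the range of the others. It averaged 40.8 ± 16.1 CPM in Met Sema3e cells, followed by 7.73 ± 6.11 CPM in Prkch cells, 7.08 ± 4.65 CPM in Gpc3 cells and 3.60 ± 3.36 CPM in Pth2 cells, and the last 3 means differed by less than the SD of the Prkch cells.

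Pde3a, on chromosome 6 (141249269 to 141507448, plus strand), had 10.2, 39.7 and 83.4 CPM on the lowest, median and highest plate in Met Sema3e cells. In the other types pooled it had 6.09, 12.99 and 19.2 CPM, and Met Sema3e cells were higher on 18 of 19 plates. Plates 18 and 19 of the Met Sema3e cells lay within the range of the others. The mean was 44.0 ± 18.9 CPM in Met Sema3e cells, against 20.3 ± 7.86 CPM in Gpc3 cells, 15.7 ± 10.3 CPM in Prkch cells and 4.50 ± 4.63 CPM in Pth2 cells.

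Chst8 and Lmo2 were high in Prkch cells too. Chst8, on chromosome 7 (34674468 to 34812711, minus strand), averaged 177 ± 61.1 CPM in Met Sema3e cells and 153 ± 40.6 CPM in Prkch cells, against 46.9 ± 25.6 CPM in Gpc3 cells and 27.9 ± 16.98 CPM in Pth2 cells. The highest plate of the Met Sema3e cells for Chst8, plate 4, had 393 CPM. Lmo2, on chromosome 2 (103957986 to 103981878, plus strand), averaged 94.0 ± 26.4 CPM in Met Sema3e cells and 67.9 ± 19.5 CPM in Prkch cells, against 24.3 ± 14.1 CPM in Gpc3 cells and 8.04 ± 5.49 CPM in Pth2 cells. On the same plate the Met Sema3e cells were the higher of these types on 13 of 19 plates for Chst8 and on 16 of 19 for Lmo2.

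**Figure D1:**
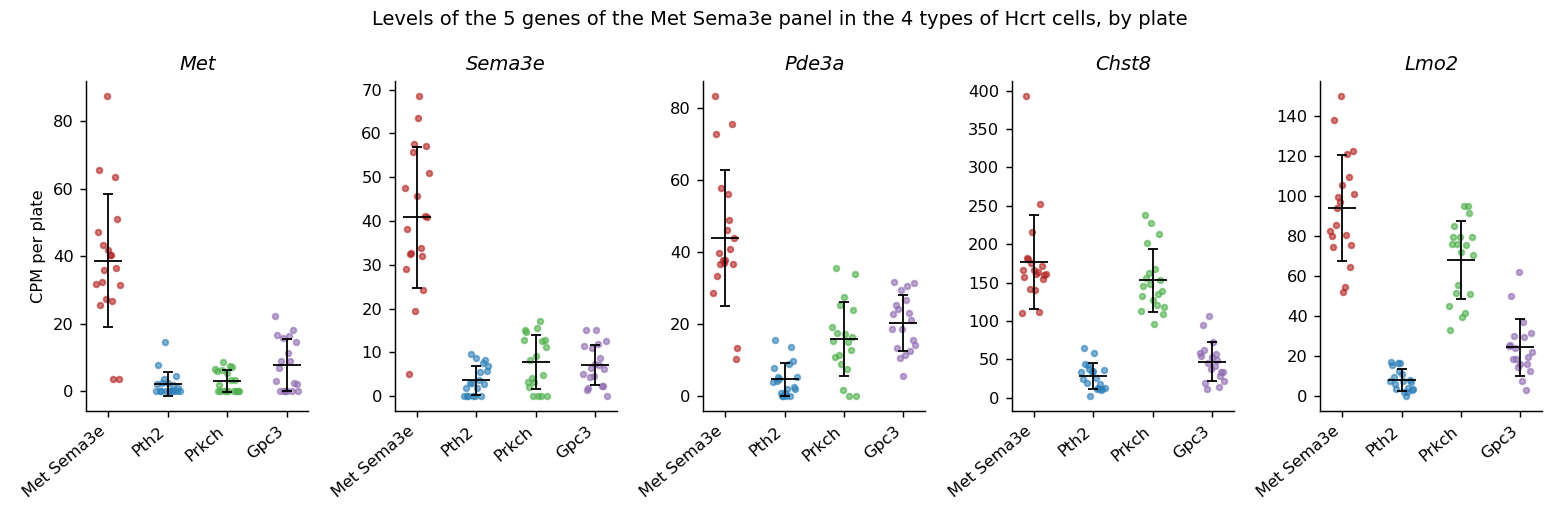
Level of each gene of the Met Sema3e panel in the 4 types of Hcrt cells. Points are the 19 plates (CPM of the summed cells), and bars are the mean and SD. Met and Sema3e stand at means of 38.7 and 40.8 CPM in Met Sema3e cells and under 8 CPM in each other type. Chst8 and Lmo2 average 177 and 94.0 CPM in Met Sema3e cells and 153 and 67.9 CPM in Prkch cells.

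Within the Met Sema3e cells the 5 genes were not all detected together. A UMI of Met was seen in 44.5% of these cells, of Sema3e in 50.5%, of Pde3a in 51.2%, of Chst8 in 92.2% and of Lmo2 in 75.3%. All 5 genes were detected in 23 cells, 4 in 74, 2 in 59, 1 in 11 and 3 in the remaining cells. After each cell was thinned to 21000 UMIs, which left out 31 Met Sema3e cells and 64 others, Met was seen in 34.9% of Met Sema3e cells, against 2.87% of Pth2, 4.72% of Prkch and 13.1% of Gpc3 cells. Wells without a cell gave little background. Met was seen in 0 of the wells that held spike-ins only or nothing, which allows a share of up to 2.88%, at a median of 172 UMIs, and in 2.15% of 466 LHA cells under the Hcrt limit, at a median of 27452.5 UMIs.

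The class is a range of a score and has no sharp edge. The highest score exceeded the next by less than 0.1 in 26 of the 283 cells, by less than 0.5 in 137 and by at least 1 in 42. In 20 cells the score was below 0, so that all 4 scores of these cells were below 0. The 26 cells just inside had a median Met Sema3e score of 0.155, and the 36 cells just outside, which missed the class by less than 0.1, had 0.144, with medians of 40274 and 39088 UMIs. The second panel was that of the Prkch type in 39.9% of Met Sema3e cells, of the Gpc3 type in 38.5% and of the Pth2 type in 21.6%. From the other side, the Met Sema3e panel came second in 183 Prkch cells (69.1%), 99 Gpc3 cells (37.8%) and 20 Pth2 cells (7.75%).

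Each gene of the panel was then tested in cells that were classed without it, by the other 19 genes. All 5 stayed higher in Met Sema3e cells (edgeR quasi-likelihood test on sums per plate and class, plate as block, Benjamini-Hochberg adjustment over all genes tested). The panels were chosen with earlier results of these cells known, so these tests are not independent evidence that the type exists. Met had 2.78, 26.3 and 52.7 CPM on the lowest, median and highest plate in Met Sema3e cells classed without it, against 0, 7.10 and 14.8 CPM in the others. The ranges overlapped, and Met was higher on 19 of 19 plates by 1.83 ± 0.28 (log2, approximate SE, adjusted p = 5.56e-06). Sema3e was higher by 1.49 ± 0.20 (adjusted p = 5.43e-07, 18 of 19 plates) and Pde3a by 1.01 ± 0.18 (adjusted p = 1.33e-04, 17 of 19 plates). Chst8 was higher by 0.86 ± 0.12 (adjusted p = 9.54e-07, 17 of 18 plates) and Lmo2 by 0.94 ± 0.12 (adjusted p = 3.85e-07, 18 of 18 plates), where plates with fewer than 5 cells in a class dropped out. With a margin of 0.5 asked of the score the differences were 3.03 ± 0.41 for Met, 1.49 ± 0.33 for Pde3a, 1.11 ± 0.15 for Chst8 and 0.94 ± 0.19 for Lmo2. Sema3e was not among the genes tested with that margin, so it has no result there. In the 5 fits without the margin the share of all genes called higher was 2.52%, 2.4%, 2.51%, 2.56% and 2.12%, in the order Met, Sema3e, Pde3a, Chst8 and Lmo2.

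Across all genes outside the panels, Met Sema3e cells differed from the other 3 types pooled in 558 of 8372 tested genes (6.67%). Of these 234 were higher (2.8%) and 324 lower (3.87%) at an adjusted p under 0.05 over 19 plates. The classes came from panel genes of the same cells, so these p-values describe how the classes differ and are no independent evidence of a type. The median log2 difference over all genes was -0.02. With a log2 difference of at least 1, 19 genes were higher (0.227%) and 51 lower (0.609%). The plate values did not overlap for 1 gene (0.0119%). With no filter on low counts the TMM scaling moved the median of the same 8372 genes to -0.11 on the log2 scale, and 0.306% of 37263 genes were then higher and 1.91% lower. Without the plate as block 178 genes were higher and 161 lower, and in cells thinned to 21000 UMIs 2.17% of 5382 genes were higher and 2.42% lower. Which of the 7 mice filled a plate is not given by the labels, so plates may share a mouse and the p-values may be too small.

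Hcrt did not differ beyond the spread between plates. It took 8.90%, 12.99% and 17.5% of the UMIs on the lowest, median and highest plate (plate medians of cells) in Met Sema3e cells and 9.13%, 13.7% and 16.2% in the others. The difference was -0.41 percentage points ± 1.27 (SD over 19 plates, permutation adjusted p = 0.217 over 5 measures), and the log2 difference of the sums was -0.02 ± 0.04 (adjusted p = 0.852). Pdyn, the precursor of dynorphin, averaged 1138 ± 198 CPM in Met Sema3e cells and 1047 ± 126 CPM in the others (log2 0.11 ± 0.05, adjusted p = 0.217). Pdyn was higher than in Pth2 cells by 0.44 ± 0.06 (adjusted p = 2.89e-08) and in Gpc3 cells by 0.26 ± 0.06 (adjusted p = 0.00389), and lower than in Prkch cells by a log2 difference of -0.39 ± 0.06 (adjusted p = 5.65e-06). Lhx9, the LIM homeobox factor of orexin neurons, averaged 160 ± 29.0 CPM in Met Sema3e cells and 142 ± 18.95 CPM in the others (log2 0.16 ± 0.07, adjusted p = 0.187). Rfx4, another transcription factor of these neurons, averaged 179 ± 54.9 CPM and 166 ± 20.6 CPM in the same order (adjusted p = 0.782).

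Among genes of peptide secretion, the granin Scg2 rose in Met Sema3e cells, at 34472 ± 5041 CPM against 30606 ± 3447 CPM in the others (log2 0.16 ± 0.05, adjusted p = 0.0381, 16 of 19 plates). This call was near the threshold and was lost when any of 12 of the 19 plates was left out, after thinning (adjusted p = 0.142), with z-scores within plates (0.0748), with no plate block (0.0915) and with no filter on low counts (log2 0.07, adjusted p = 0.928). By type, Scg2 differed by 0.32 ± 0.05 from Pth2 cells (adjusted p = 9.19e-08), 0.02 ± 0.05 from Prkch cells (0.924) and 0.09 ± 0.04 from Gpc3 cells (0.332). Nptx2, a secreted pentraxin that gathers AMPA receptors, fell, at 237 ± 63.7 CPM against 296 ± 54.6 CPM (log2 -0.33 ± 0.06, adjusted p = 3.14e-04, lower on 18 of 19 plates). It did not pass when cells were thinned (adjusted p = 0.214) or when a margin of 0.5 was asked of the score (adjusted p = 0.0625). Nptx2 differed by -0.51 ± 0.08 from Pth2 cells (adjusted p = 1.52e-07), 0.23 ± 0.08 from Prkch cells (0.132) and -0.48 ± 0.08 from Gpc3 cells (5.51e-06). Vgf, a secreted neuropeptide precursor, averaged 637 ± 182 CPM in Met Sema3e cells and 720 ± 121 CPM in the others (adjusted p = 0.217). By type it differed in opposite directions. Vgf was lower than in Pth2 cells (log2 -0.39 ± 0.10, adjusted p = 0.00535) and Gpc3 cells (-0.47 ± 0.10, adjusted p = 0.00220). It was higher than in Prkch cells (0.55 ± 0.11, adjusted p = 6.42e-04). Over the list of granins and prohormone processing, 2 of 11 tested genes were higher (Scg2 and Scg3), 1 was lower (Pam, an enzyme of peptide amidation) and 8 did not pass, beside 2.8% higher and 3.87% lower over all genes. With a plate left out 1 to 2 were higher and 0 to 2 lower.

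Several glutamate genes were higher in Met Sema3e cells. Of 21 tested genes of glutamate receptors and transport 6 rose, 1 fell and 14 did not pass, with a median log2 difference of 0.33 against -0.02 over all genes. Over all genes 2.8% were higher and 3.87% lower. Against Prkch cells 0 of 20 were higher and 1 was lower, beside 0.884% and 1.61% of all genes. Slc17a6, the vesicular glutamate transporter VGLUT2, had 81.6, 162 and 247 CPM on the lowest, median and highest plate in Met Sema3e cells and 78.2, 118 and 165 CPM in the others. The ranges overlapped, and the level was higher on 18 of 19 plates (log2 0.46 ± 0.08, adjusted p = 4.85e-05). Gria1, an AMPA receptor subunit, averaged 188 ± 50.7 CPM in Met Sema3e cells and 127 ± 24.7 CPM in the others (log2 0.54 ± 0.08, adjusted p = 5.46e-06, 19 of 19 plates). Gria2, Grin1 and Grin3a, which encode another AMPA and 2 NMDA receptor subunits, rose by 0.27 to 0.53 on the log2 scale. Slc1a2, the glial glutamate transporter GLT-1 that neurons can also express, averaged 20.4 ± 11.5 CPM in Met Sema3e cells and 9.92 ± 5.09 CPM in the others (log2 0.96 ± 0.26, adjusted p = 0.0138). It is also on the astrocyte list, whose summed level ran from 88.4 to 187 CPM in Met Sema3e cells and from 87.0 to 146 CPM in the others and was higher on 17 of 19 plates; its part in the result was not tested.

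The gene that fell was Grik1, the kainate receptor subunit GluK1 (chromosome 16, 87895900 to 88290265). Grik1 had 0, 3.06 and 13.5 CPM on the lowest, median and highest plate in Met Sema3e cells, against 13.2, 22.1 and 28.9 CPM in the others. It was lower on 19 of 19 plates, with barely touching ranges, by a log2 difference of -2.56 ± 0.31 (adjusted p = 5.83e-08). Grik1 was lower than in each other type, with log2 differences of -3.14 ± 0.34 from Pth2 cells (32.6 ± 11.2 CPM), -1.32 ± 0.37 from Prkch cells (9.88 ± 8.55 CPM, adjusted p = 0.0284) and -2.34 ± 0.35 from Gpc3 cells (19.9 ± 9.39 CPM).

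Of 15 tested GABA and glycine genes 1 rose and 1 fell, beside 2.8% higher and 3.87% lower over all genes. Gad2, a GABA-synthesising enzyme, had 0, 4.97 and 33.8 CPM on the lowest, median and highest plate in Met Sema3e cells, against 10.8, 28.2 and 51.1 CPM in the others. The ranges overlapped, and Gad2 was lower on 17 of 19 plates (log2 -2.23 ± 0.36, adjusted p = 2.02e-05). It was low in Prkch cells too (9.54 ± 19.2 CPM, log2 Met Sema3e minus Prkch -0.10 ± 0.62, adjusted p = 0.982). Slc32a1, the vesicular GABA transporter, was not tested for low counts and averaged 1.58 CPM in Met Sema3e cells and 0.748 CPM in the others.

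Several other peptides and growth factors differed. Of 13 tested neuropeptides and secreted signals 3 rose, 4 fell and 6 did not pass, with a median of -0.02 on the log2 scale. Over all genes 2.8% were higher and 3.87% lower. Nts, the precursor of neurotensin, had 0, 4.54 and 286 CPM on the lowest, median and highest plate in Met Sema3e cells and 81.0, 144 and 370 CPM in the others. It was lower on 18 of 19 plates by a log2 difference of -3.78 ± 0.54 (adjusted p = 1.03e-04), while plates 7 and 12 of the Met Sema3e cells, at 141 and 286 CPM, lay within the range of the others. Without plate 12 the difference was -4.38. By type, Nts averaged 353 ± 132 CPM in Pth2 cells, 28.5 ± 74.3 CPM in Prkch and 31.0 ± 41.8 CPM in Gpc3 cells, and the differences of Met Sema3e cells from Prkch and Gpc3 cells did not pass (adjusted p = 0.939 and 0.682). Penk, the enkephalin precursor, averaged 174 ± 116.6 CPM in Met Sema3e cells and 85.0 ± 24.3 CPM in the others (log2 0.90 ± 0.22, adjusted p = 0.0140, 16 of 19 plates). Bdnf, a neurotrophin, averaged 87.9 ± 33.9 CPM in Met Sema3e cells and 165 ± 45.6 CPM in the others (log2 -0.92 ± 0.11, adjusted p = 1.09e-07, lower on 18 of 19 plates), although it was higher than in Prkch cells alone. Cbln1, a synapse organiser, and Igfbp5, a binding protein of insulin-like growth factors, rose by 0.31 ± 0.07 and 0.87 ± 0.27.

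Th, tyrosine hydroxylase of catecholamine synthesis, had 0, 5.27 and 17.8 CPM on the lowest, median and highest plate in Met Sema3e cells and 5.69, 28.3 and 52.0 CPM in the others (log2 -2.07 ± 0.26, adjusted p = 1.62e-07, lower on 18 of 19 plates). The ranges overlapped on the low side. Against Prkch cells alone the difference of Th did not pass (log2 -1.24 ± 0.39, adjusted p = 0.0672). Htr2c, the serotonin 2C receptor, had 35.8, 66.2 and 181 CPM in Met Sema3e cells and 23.8, 35.6 and 66.2 CPM in the others, and was higher on 19 of 19 plates (log2 1.04 ± 0.14, adjusted p = 3.89e-07). Adra2a, an inhibitory adrenergic receptor, fell (36.6 ± 17.1 against 51.0 ± 13.3 CPM, log2 -0.54 ± 0.14, adjusted p = 0.0100), and the other 5 tested receptors for monoamines and acetylcholine did not pass. Calls among receptors are to be read beside the 2.8% of all genes that were higher and the 3.87% that were lower. Of 13 tested peptide and hormone receptors, by edgeR, Crhr2 (log2 0.54 ± 0.13, adjusted p = 0.00416) and the kappa opioid receptor Oprk1 (log2 0.46 ± 0.13, adjusted p = 0.0181) rose and none fell, and DESeq2 also called Cckar, a cholecystokinin receptor, higher (log2 0.56, adjusted p = 0.0111). Against Prkch cells alone Oprk1 went the other way and was lower (edgeR, log2 -0.70 ± 0.19, adjusted p = 0.0210). In that contrast Avpr1a, a vasopressin receptor, was higher (edgeR, log2 1.03 ± 0.18, adjusted p = 3.83e-05). These were the 1 higher and 1 lower of 13 tested, beside 0.884% and 1.61% of all genes. Outside that list, Npbwr1, the receptor of neuropeptides B and W, had 7.66, 33.6 and 66.5 CPM in Met Sema3e cells and 1.11, 16.8 and 29.0 CPM in the others (log2 1.14 ± 0.23, adjusted p = 8.10e-04, 17 of 19 plates).

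**Figure D2:**
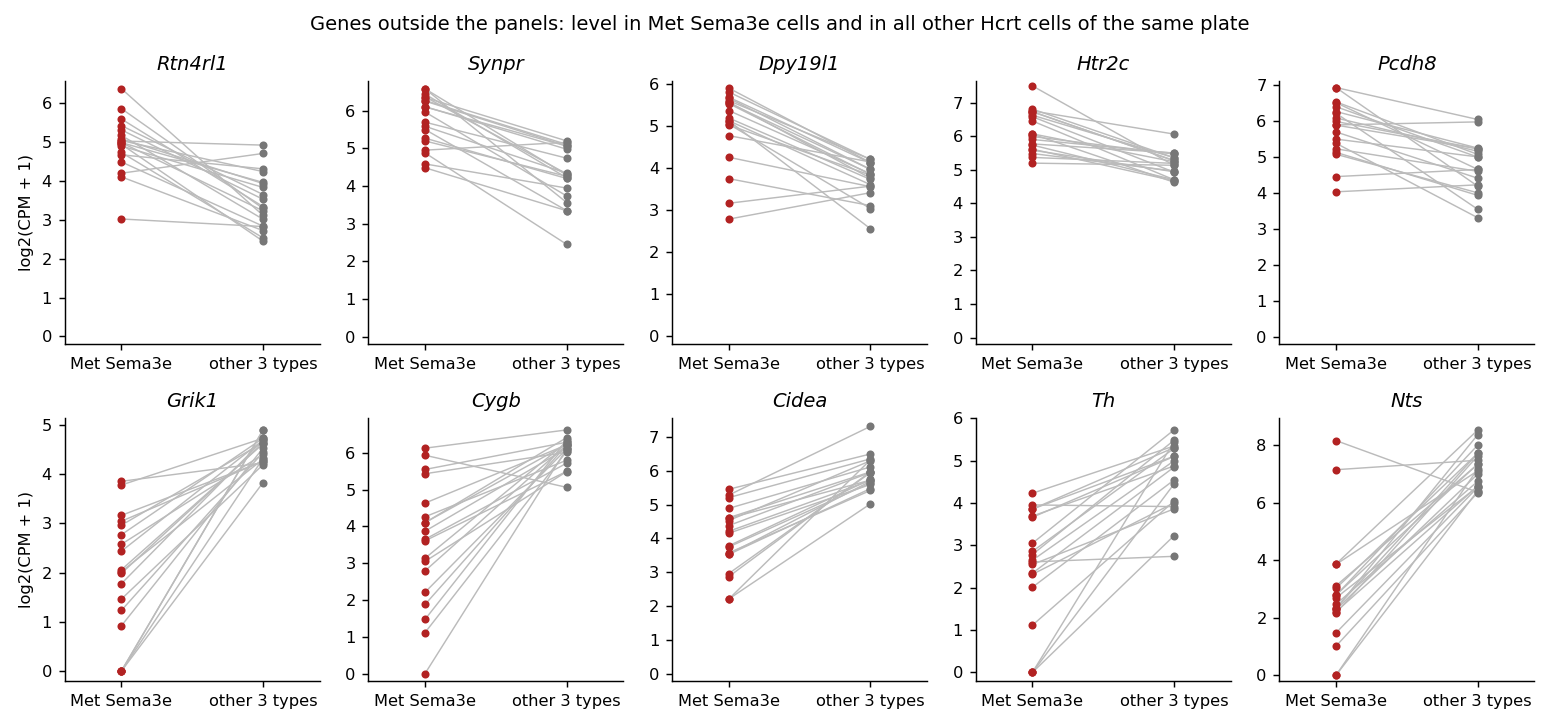
Levels of 10 genes outside the panels, as log2(CPM + 1), in Met Sema3e cells (left) and in the other 3 types pooled (right). Each line joins the 2 values of 1 of 19 plates. Met Sema3e cells are higher on 18 of 19 plates for Synpr and on 19 for Htr2c and lower on 19 for Grik1 and Cidea, and Nts of Met Sema3e cells lies within the range of the others on 2 plates.

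Among genes that met the naming rule, which asks for the same direction on 80% of plates, the highest log2 differences in the pooled comparison were, in order, those of Rtn4rl1, Synpr, Dpy19l1, Ubash3b and Vav3. Rtn4rl1, a Nogo receptor relative on axons, averaged 33.1 ± 16.3 CPM in Met Sema3e cells and 11.7 ± 6.90 CPM in the others (log2 1.52 ± 0.23, adjusted p = 4.19e-06, 18 of 19 plates). Synpr, a synaptic vesicle protein, averaged 57.9 ± 24.5 and 20.7 ± 9.84 CPM in the same order (log2 1.49 ± 0.17, adjusted p = 1.32e-08, 18 of 19 plates). Dpy19l1, a membrane protein that attaches mannose to tryptophan (chromosome 9, 24411776 to 24503140), had 5.88, 35.7 and 59.1 CPM on the lowest, median and highest plate in Met Sema3e cells and 4.87, 13.2 and 17.5 CPM in the others (log2 1.41 ± 0.19, adjusted p = 9.50e-07, 17 of 19 plates). The signalling genes Ubash3b, a phosphatase, and Vav3, a guanine nucleotide exchange factor, rose by 1.34 ± 0.20 and 1.25 ± 0.28. Gpr37, Lypd1, Ptprd, Lancl3 and the potassium channel Kcnk2 (TREK-1) also met the naming rule, with log2 differences of 1.00 to 1.24, and 14 genes met it in all.

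Among genes that were lower, 25 met the naming rule. Cygb, the oxygen-binding cytoglobin (chromosome 11, 116645595 to 116654313), had 0, 11.6 and 68.9 CPM on the lowest, median and highest plate in Met Sema3e cells and 32.4, 68.7 and 97.6 CPM in the others (log2 -2.12 ± 0.33, adjusted p = 2.08e-04, lower on 18 of 19 plates). The ranges overlapped through plates 1, 4, 7 and 12 of the Met Sema3e cells. Cidea, a lipid droplet protein, averaged 18.2 ± 11.6 CPM in Met Sema3e cells and 63.8 ± 27.0 CPM in the others (log2 -1.79 ± 0.15, adjusted p = 1.30e-11, lower on 19 of 19 plates). Amotl1, a junction protein of the angiomotin family, averaged 29.4 ± 13.4 and 76.1 ± 15.3 CPM in the same order (log2 -1.45 ± 0.14, adjusted p = 2.60e-10, 19 of 19 plates). Atp2b4, a plasma membrane calcium pump (chromosome 1, 133699457 to 133801041), averaged 4.80 ± 4.42 CPM in Met Sema3e cells and 17.2 ± 6.02 CPM in the others (log2 -1.87 ± 0.31, adjusted p = 3.32e-05). Plcxd3, Rasl11a, Adamtsl1, Ntng1 and Rnf128 fell by log2 differences of -1.91 to -1.37, with Ntng1 a membrane-bound netrin of axon guidance and Rnf128 a ubiquitin ligase. Against Prkch cells alone Ntng1 and Rnf128 passed (adjusted p = 0.0397 and 0.0348). Plcxd3 (log2 -0.64 ± 0.36, adjusted p = 0.473), Rasl11a (-0.98 ± 0.32, 0.0893) and Adamtsl1 (0.06 ± 0.36, 0.983) did not pass in that contrast.

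The partners of the panel genes were too low to test or did not pass. Counts of the gene lists given here are to be read beside the 6.67% of all genes that passed. At that share a list of 8 or 17 genes can hold 0 calls. Hgf, the ligand of MET, averaged 1.77 ± 2.92 CPM in Met Sema3e cells and 1.04 ± 1.48 CPM in the others and was too low to test. Of 18 genes of the HGF and MET pathway, 8 were tested and 0 passed in either direction (edgeR; 0 also by DESeq2 and 0 at an unadjusted p under 0.05; median log2 difference 0.03, or -0.06 with no filter on low counts), among them the adaptor Grb2 (51.9 ± 19.4 against 50.3 ± 11.1 CPM), the phosphatase Ptpn11 (69.0 ± 23.7 against 76.4 ± 17.2 CPM) and the HGF activator inhibitor Spint2 (125 ± 23.8 against 128 ± 18.4 CPM). Plxnd1, the receptor of SEMA3E, averaged 0.314 CPM in Met Sema3e cells and 0.623 CPM in the others, and the coreceptor Nrp1 0.834 and 3.04 CPM, both too low to test. Of 10 tested semaphorins, plexins and neuropilins, Sema5a alone passed by edgeR and rose (68.8 ± 24.4 against 38.7 ± 9.63 CPM, log2 0.82 ± 0.13, adjusted p = 2.31e-05, 17 of 19 plates), while DESeq2 also called Sema6c higher (log2 0.80, adjusted p = 0.0452) and Plxna4 lower (log2 -0.50, adjusted p = 0.0395). Of 17 tested genes of cyclic nucleotide signalling, 0 passed by edgeR, although 7 had an unadjusted p under 0.05. DESeq2 called 3 of them higher, which were Gnas, the stimulatory G protein subunit (log2 0.09, adjusted p = 0.0360, against 0.133 by edgeR), the phosphodiesterase Pde10a (log2 0.30, adjusted p = 0.0257, against 0.0667 by edgeR) and the protein kinase A subunit Prkar1a (log2 0.12, adjusted p = 0.0344, against 0.166 by edgeR). Pde3b, the relative of Pde3a, averaged 4.41 and 3.78 CPM in Met Sema3e and other cells and was not tested. The LIM partners Ldb1 (17.8 ± 8.72 against 12.6 ± 3.98 CPM, adjusted p = 0.217) and Ldb2 (15.3 ± 11.4 against 21.7 ± 5.23 CPM, adjusted p = 0.122) did not pass. Lmo4, a relative of Lmo2, did not pass either (7.50 ± 6.25 against 9.65 ± 4.23 CPM, adjusted p = 0.521). Ldb2 passed with DESeq2 (adjusted p = 0.0467), with no filter (0.0228) and on plates with at least 10 cells a class (0.0368).

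Cell adhesion, channels and calcium-binding proteins held further differences. Of 40 tested cadherins and synaptic adhesion genes 9 rose, 4 fell and 27 did not pass (median log2 0.18), beside 2.8% higher and 3.87% lower over all genes. Against Pth2 cells 17 of 39 were higher and 6 lower (median 0.43), beside 6.89% and 7.76% of all genes. Against Prkch cells 2 of 39 were higher and 2 lower (median 0.06), beside 0.884% and 1.61% of all genes. Pcdh8, an activity-linked protocadherin, averaged 61.6 ± 30.04 CPM in Met Sema3e cells and 28.4 ± 15.1 CPM in the others (log2 1.13 ± 0.17, adjusted p = 5.36e-06). Pcdh7 went the other way (35.3 ± 13.97 against 66.1 ± 19.2 CPM, log2 -0.96 ± 0.13, adjusted p = 4.65e-07, lower on 19 of 19 plates). Of 26 tested potassium channel genes 4 rose (Kcnj9, Kcnk2, Kcnc4 and Kcnd2) and 1, the large-conductance channel Kcnma1, fell, beside 2.8% and 3.87% of all genes. With a plate left out 2 to 4 rose and 0 to 1 fell, and against Prkch cells 0 of 23 passed by edgeR in either direction, with 6 at an unadjusted p under 0.05. Calb1, the calcium buffer calbindin, averaged 1473 ± 145 CPM in Met Sema3e cells and 1088 ± 111.4 CPM in the others (log2 0.43 ± 0.03, adjusted p = 9.81e-14, 19 of 19 plates), and Calb2, calretinin, 467 ± 106.9 and 259 ± 72.3 CPM (log2 0.85 ± 0.09, adjusted p = 5.83e-08, 19 of 19 plates). In all, 3 of 13 tested calcium-binding proteins rose and 4 fell, among them S100a10 (186 ± 38.0 against 289 ± 45.6 CPM, lower). Against Prkch cells 1 of 13 was higher and 5 were lower, beside 0.884% and 1.61% of all genes. Of 19 tested LIM and other identity transcription factors, Foxp2 (log2 0.96 ± 0.18, adjusted p = 1.71e-04) and Sox2 (log2 1.49 ± 0.35, adjusted p = 0.00348, 15 of 19 plates) rose and Lhx2 and Tshz2 fell. Of 18 such factors tested against Prkch cells 0 passed in either direction, with 5 at an unadjusted p under 0.05.

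Set against 1 type at a time, Met Sema3e cells differed in the fewest genes from Prkch cells and in the most from Pth2 cells. A single fit over 76 sums of plate and type tested 7695 genes. Met Sema3e cells differed in 1127 genes from Pth2 cells (14.6%), with 530 higher (6.89%) and 597 lower (7.76%), in 392 from Gpc3 cells (5.09%), with 171 higher (2.22%) and 221 lower (2.87%) and in 192 from Prkch cells (2.5%), with 68 higher (0.884%) and 124 lower (1.61%). The 3 comparisons share the Met Sema3e sums. At a log2 difference of at least 1 from each type, 1 gene was higher than each (0.013%), Dpy19l1, and 3 were lower than each (0.039%), Grik1, Cygb and Atp2b4. Dpy19l1 was higher by 1.83 ± 0.27 than in Pth2, 1.07 ± 0.26 than in Prkch (adjusted p = 0.00650) and 1.39 ± 0.26 than in Gpc3 cells, and it no longer met the fold limit in every comparison when z-scores were taken within plates, when Hcrt was set to at least 5% or when plate 19 was left out. Cygb was lower by log2 differences of -2.55 ± 0.26, -1.64 ± 0.27 and -1.46 ± 0.27 from Pth2, Prkch and Gpc3 cells, and Atp2b4 by -2.20 ± 0.35, -1.48 ± 0.37 and -1.46 ± 0.35.

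Several genes named in the pooled comparison passed against Pth2 and Gpc3 cells and did not pass against Prkch cells. Htr2c differed by 2.39 ± 0.23 from Pth2 cells, 0.06 ± 0.20 from Prkch cells and 1.14 ± 0.22 from Gpc3 cells. Synpr differed by 2.95 ± 0.25, 0.38 ± 0.22 and 1.92 ± 0.24 in that order, and Rtn4rl1 by 3.41 ± 0.36, 0.41 ± 0.31 and 1.86 ± 0.33. Ubash3b, Vav3, Lypd1, Npbwr1 and Ptprd also passed against Pth2 and Gpc3 cells and not against Prkch cells (adjusted p from 0.168 to 0.707). Gpr37 and Kcnk2 passed against Pth2 cells only. Their adjusted p was 0.731 and 0.738 against Prkch cells and 0.0976 and 0.117 against Gpc3 cells. Cidea was lower than in Pth2 and Gpc3 cells, with log2 differences of -2.31 ± 0.18 from Pth2 cells and -1.998 ± 0.18 from Gpc3 cells, and its difference from Prkch cells was 0.32 ± 0.20 (adjusted p = 0.578). Pcdh8 passed against Pth2 and Prkch cells and not against Gpc3 cells, with 1.79 ± 0.29 from Pth2, 1.84 ± 0.30 from Prkch and 0.38 ± 0.27 from Gpc3 cells.

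**Figure D3:**
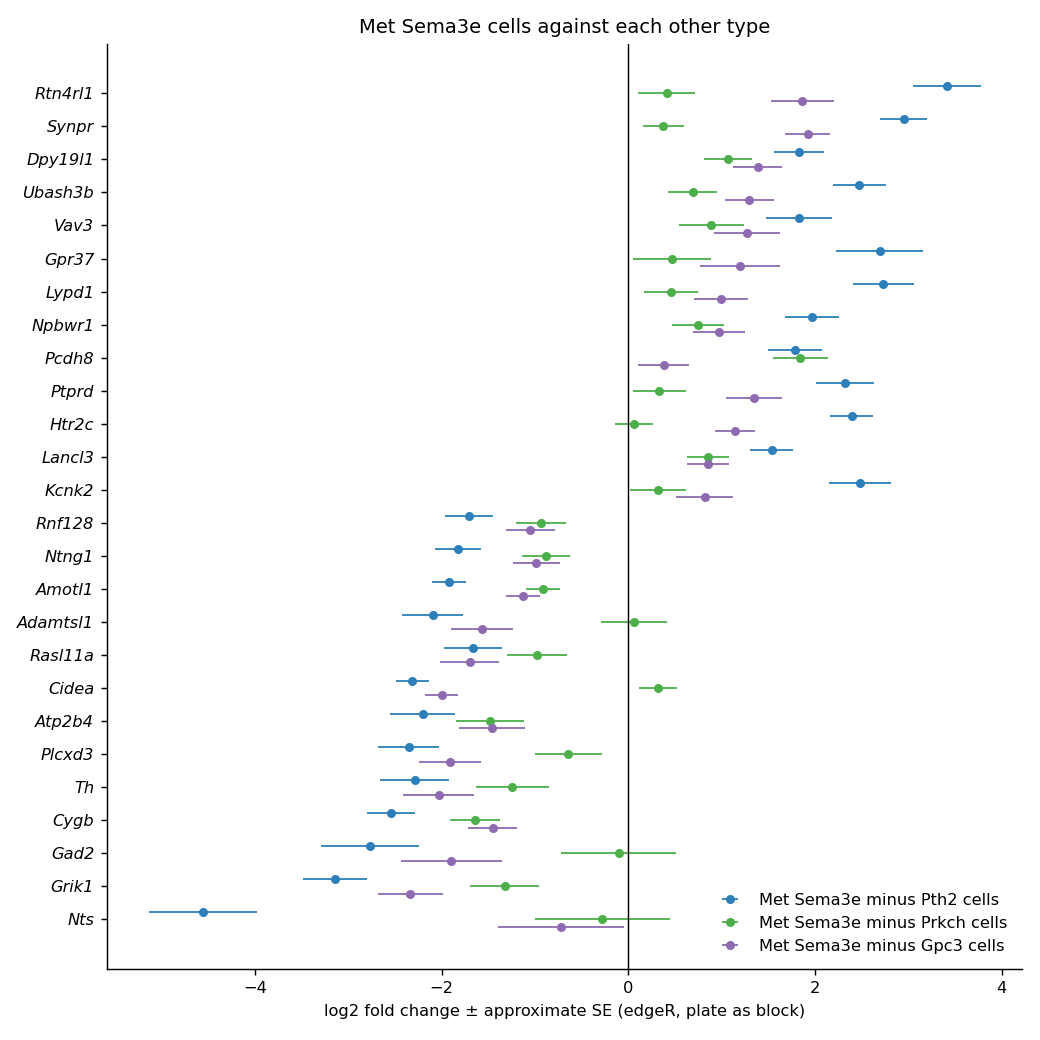
Log2 fold changes (edgeR, approximate SE as bars) of Met Sema3e cells against Pth2, Prkch and Gpc3 cells for the genes named in the pooled comparison, sorted by the pooled fold change. The Prkch contrast is near 0 for Htr2c (0.06) and Cidea (0.32), whereas Grik1, Cygb and Atp2b4 are below -1 in all 3.

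Against Prkch cells 27 genes met the size limits of the naming rule, among them Penk, Bdnf, Igsf21 and Cadm1. Of the 27 genes, chosen by a limit applied to this contrast after values were seen, the 6 with the largest log2 differences in each direction are given. The peptide precursor Penk averaged 174 ± 116.6 CPM in Met Sema3e cells and 64.4 ± 45.0 CPM in Prkch cells (log2 1.43 ± 0.24, adjusted p = 3.49e-05, 18 of 19 plates). Bdnf averaged 87.9 ± 33.9 and 32.8 ± 26.1 CPM in the same order (log2 1.48 ± 0.26, adjusted p = 9.03e-05, 18 of 19 plates). Pcdh8, the phospholipase Plcb4, the transcriptional coregulator Cited1 and the diacylglycerol kinase Dgkk were higher by log2 differences of 1.84, 1.51, 1.45 and 1.13. Lower than in Prkch cells were Igsf21, a synaptic adhesion protein (13.99 ± 6.46 against 47.1 ± 13.4 CPM, log2 -1.79 ± 0.30, adjusted p = 1.41e-05, 19 of 19 plates), and Cadm1, another (33.0 ± 23.6 against 83.6 ± 29.4 CPM, log2 -1.43 ± 0.21, adjusted p = 7.96e-07, 19 of 19 plates). Mymk, known as a fusion protein of muscle cells, Cygb, the small GTPase Rasd1 and the nuclear envelope protein Syne2 were lower by log2 differences of -2.45, -1.64, -1.59 and -1.40.

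The same limits took 168 genes against Pth2 cells and 36 against Gpc3 cells. Against Pth2 cells the largest included Rprm, a cell cycle gene (94.9 ± 30.6 against 9.76 ± 7.59 CPM, log2 3.23 ± 0.21, adjusted p = 6.88e-24, 19 of 19 plates), and Lgi1, a secreted synaptic protein (4.76 ± 4.05 against 28.3 ± 17.8 CPM, log2 -2.49 ± 0.34, adjusted p = 9.31e-09). Against Gpc3 cells they included Calb2 (467 ± 106.9 against 138 ± 45.8 CPM, log2 1.74 ± 0.15, adjusted p = 2.07e-13, 19 of 19 plates) and Cnr1, the cannabinoid receptor CB1 (9.09 ± 8.18 against 23.8 ± 13.7 CPM, log2 -1.46 ± 0.34, adjusted p = 0.00199). Sox2 was higher than in both, by 3.09 ± 0.44 and 2.44 ± 0.43.

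The genes outside the panels whose levels were most like those of Met over the 76 sums were Atp2b1, a plasma membrane calcium pump (Pearson r = 0.597), Dpy19l1 (0.564), Arhgap36 (0.558), Sox2 (0.551) and Ppm1l (0.551). These are descriptions of log2(CPM + 1). The sums share plates and depth, and Met had few UMIs in most of them.

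Cells were also grouped without the panel genes and Hcrt. Leiden clustering on the other variable genes gave 9 clusters, numbered from the largest. Of the 283 Met Sema3e cells 91 were in cluster 2, 80 in cluster 4 and 51 in cluster 5, where they made up 60.7%, 54.1% and 49.0% of the cells, and 0 were in cluster 0, which held 170 of the 258 Pth2 cells. Prkch cells shared cluster 4 (54 cells) and cluster 5 (31 cells) with them, and Gpc3 cells shared cluster 2 (33 cells). Among the 30 nearest neighbours of a Met Sema3e cell, 48.7% were Met Sema3e cells on average, 25.4% Prkch, 21.5% Gpc3 and 4.33% Pth2 cells, while Met Sema3e cells were 26.5% of all cells. The clusters and the panels rest on the same cells.

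**Figure D4:**
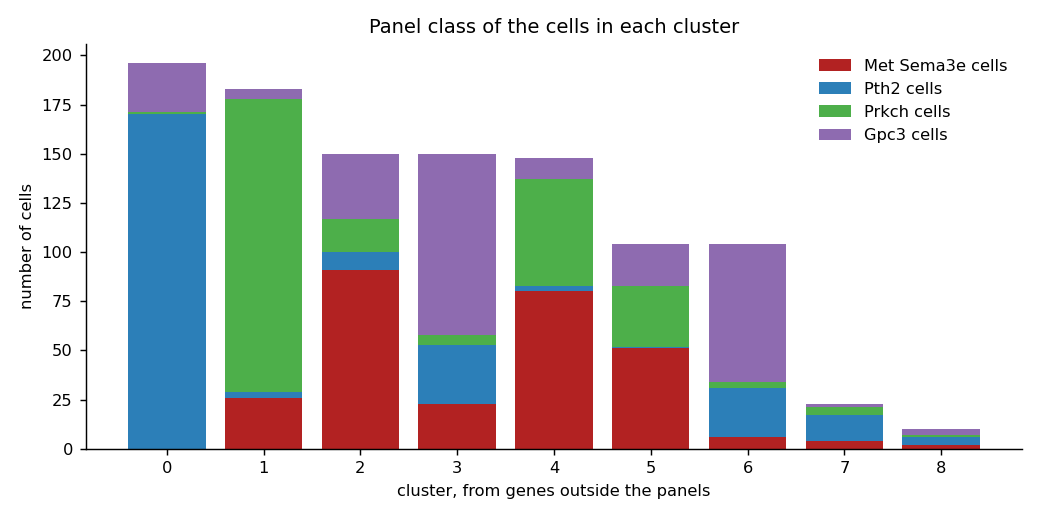
Number of cells of each type in the 9 clusters made from genes outside the panels. Met Sema3e cells (red) make up 91 of 150 cells in cluster 2, 80 of 148 in cluster 4 and 49.0% of cluster 5, and 0 of the 196 cells in cluster 0.

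Met Sema3e cells had fewer UMIs and a higher share of spike-ins than the others. The plate median of UMIs per cell averaged 46771 ± 19386 in Met Sema3e cells and 55923 ± 22480 in the others (SD, n = 19 plates), a difference of -9152 ± 12505 (permutation adjusted p = 0.0134 over 5 measures, lower on 17 of 19 plates). ERCC spike-ins, external RNAs added to the wells, took 3.26% ± 0.68 of counts in Met Sema3e cells and 2.74% ± 0.57 in the others (difference 0.52 ± 0.53 percentage points, adjusted p = 0.00120, higher on 18 of 19 plates). The pattern followed the types, with 71829 ± 28822 UMIs in Pth2 cells, 45459 ± 18778 in Prkch cells and 55474 ± 23251 in Gpc3 cells. The ERCC share was 2.13% ± 0.32, 3.28% ± 0.67 and 2.80% ± 0.60 in the same order, so Prkch cells lay close to Met Sema3e cells in both measures. At 21000 UMIs Met Sema3e cells had 4063 ± 164 genes and the others 4119 ± 141 (adjusted p = 0.0321, lower on 13 of 18 plates), which no longer passed when any of plates 4, 7, 8, 10, 12, 15 and 18 was left out (adjusted p up to 0.0633). The difference was -99.96 genes with the score margin of 0.5 (adjusted p = 0.00326) and -76.9 genes with plate means (adjusted p = 0.00197). Before thinning the difference was -360 genes. By type over 19 plates, genes at 21000 UMIs averaged 4071 ± 163 in Met Sema3e, 4232 ± 126 in Pth2, 4055 ± 170 in Prkch and 4113 ± 138 in Gpc3 cells. The part of depth in the gene results was not tested beyond the thinned fit. The mitochondrial share of UMIs was 2.46% ± 0.37 in Met Sema3e cells and 2.41% ± 0.31 in the others (difference 0.054 percentage points, adjusted p = 0.299). It passed with the margin (0.18 percentage points, adjusted p = 0.0260) and with plate means (0.15, adjusted p = 0.0191).

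**Figure D5:**
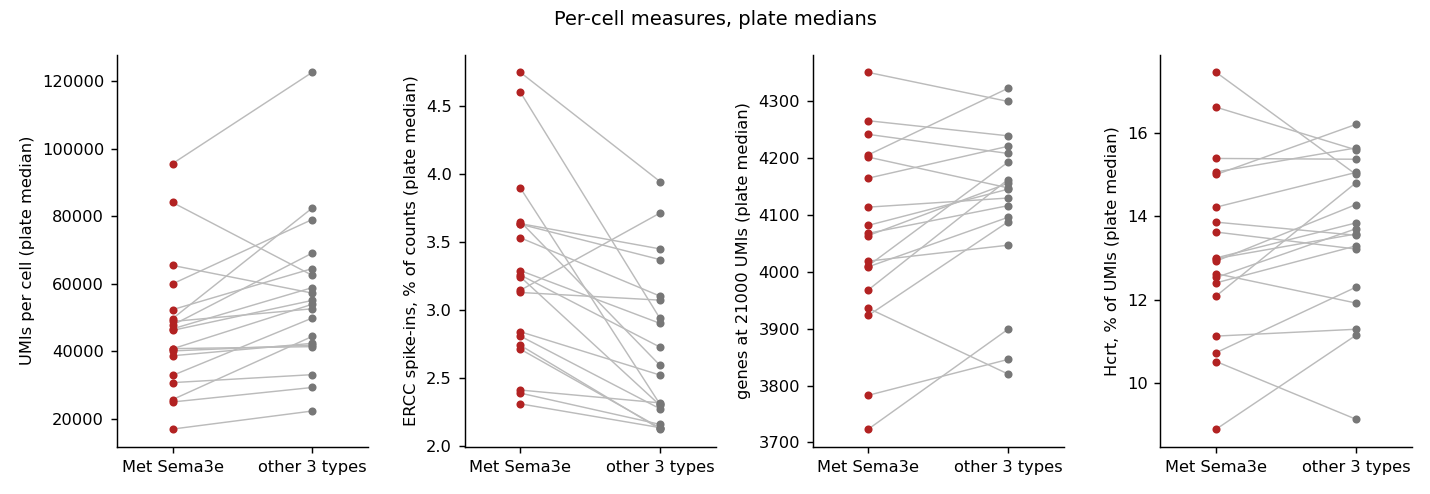
Plate medians of 4 per-cell measures in Met Sema3e cells (left) and in the other 3 types (right), with a line for each plate. UMIs per cell are lower in Met Sema3e cells on 17 of 19 plates and the ERCC share is higher on 18 of 19, while Hcrt takes 13.2% and 13.6% of UMIs on average.

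The summed level of 10 pan-neuronal genes ran from 4814 to 8297 CPM in Met Sema3e cells and from 5297 to 9384 CPM in the others, and was lower on 19 of 19 plates. Of its 10 genes, 5 fell (Uchl1, Tubb3, Stmn2, Snap25 and Elavl4) and 1, the calcium sensor of vesicle release Syt1, rose (222 ± 57.3 against 154 ± 32.1 CPM, log2 0.51 ± 0.07, adjusted p = 1.02e-06), with a median log2 difference of -0.24. Over all genes 3.87% were lower and 2.8% higher. By type the median log2 difference of the 10 genes was -0.43 from Pth2, 0.04 from Prkch and -0.13 from Gpc3 cells. Against Prkch cells 0 of 10 were higher and 2 were lower, beside 0.884% and 1.61% of all genes. Oligodendrocyte markers summed to 23.1 to 4610 CPM in Met Sema3e cells, with a median of 43.4 CPM, and to 40.2 to 2044 CPM in the others, with a median of 66.6 CPM. Of 3 tested oligodendrocyte genes 0 passed by edgeR and 1 had an unadjusted p under 0.05, while DESeq2 called 1. In 164 Hcrt cells, 53 of them Met Sema3e cells, more than 5% of marker counts came from non-neuronal lists, and without them 203 genes were higher and 312 lower. Markers of oligodendrocyte precursors summed to at most 158 CPM in Met Sema3e cells and 42.8 CPM in the others, and those of Pmch neurons, the melanin-concentrating hormone cells of the area, to 5.84 to 887 CPM and 13.1 to 6839 CPM, with 0 of 2 tested genes passing by edgeR or DESeq2 and 0 at an unadjusted p under 0.05. The GABAergic neuron list summed to 2.55 to 132 CPM in Met Sema3e cells and 27.6 to 119 CPM in the others, and Gad2 alone of its 2 tested genes passed. Each of the microglia, endothelial, mural and ependymal lists summed to under 12 CPM on every plate in Met Sema3e cells, and C1qa and Ly6c1 were at 0 in all of them. The part of these markers in the results was not tested.

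The remaining lists held few calls, to be read beside the 2.8% of all genes that were higher and the 3.87% that were lower. Of 26 tested synaptotagmins, SNAREs and complexins 3 rose and 3 fell, and of 30 tested sodium, calcium, HCN and TRP channels 3 rose and 3 fell; with a plate left out 0 to 3 of the channel genes fell. Of 16 tested sulfotransferases and proteoglycans, the genes nearest to Chst8 in function, Sdc2 rose (167 ± 40.6 against 118 ± 27.9 CPM) and Chst1 fell (22.1 ± 10.3 against 33.2 ± 7.82 CPM). Of 11 tested axon guidance genes outside the semaphorins, Epha5 rose (166 ± 38.5 against 117.2 ± 22.7 CPM, log2 0.48 ± 0.09, adjusted p = 2.11e-04) and Ntng1 fell (12.2 ± 6.99 against 31.1 ± 7.12 CPM, log2 -1.38 ± 0.20, adjusted p = 4.19e-06). Of 14 tested immediate early and dissociation genes, Fosb alone passed by edgeR and was lower (11.3 ± 8.18 against 20.8 ± 6.43 CPM, log2 -0.98 ± 0.23, adjusted p = 0.00409), and DESeq2 also called Jun lower (log2 -0.67, adjusted p = 0.0378). Against Prkch cells 0 of these 14 genes were higher and 4 were lower by edgeR, beside 0.884% and 1.61% of all genes, with a median log2 difference of -0.62, and 8 had an unadjusted p under 0.05. The 4 were Fos (log2 -0.60 ± 0.10, adjusted p = 8.00e-05), Fosb (-1.23 ± 0.28, adjusted p = 0.00372), Junb (-1.07 ± 0.25, adjusted p = 0.00420) and Egr1 (-0.72 ± 0.20, adjusted p = 0.0240), transcription factors induced by activity and by cell dissociation. The part of these genes in the differences from Prkch cells was not tested.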

How the data were processed

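Smart-SCRB libraries of hand-picked LHA cells were analysed from a single table of the series. Its deposited values are raw counts for each gene in each well, and a well table by the authors holds the percent of counts taken by ERCC RNA. The tools were, per the submitters' processing notes, bcl2fastq 2.20, cutadapt 2.1.0, STAR 2.7.5c, STARsolo 2.7.5c, Seurat 2.3.4 and R 3.4.3, with the build GRCm38. UMI collapsing, strand and annotation release are not given in the sources used here, so the word UMI rests on the design of the first read. Libraries held 135025 ± 38401 reads per cell (mean ± SD), per the labels. GENCODE M21, from which coordinates were read, held 99.7% of the 52636 mouse gene identifiers. The 103 rows that name no mouse gene had 3.51% of counts in LHA wells and entered neither totals nor tests.

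The members, panels and 28 gene lists were chosen with earlier results of these data known. Counts were summed for each plate and class (at least 5 cells, or 3 where each type was compared). The sums were fitted in edgeR 4.0.16 with TMM scaling, its default filter on low counts and the quasi-likelihood test. Plate was a block, because the classes come from the same plates. The 20 panel genes were not tested. P-values were adjusted by the Benjamini-Hochberg method over every gene in a fit, with 0.05 as threshold. An approximate SE was taken as the size of the log2 difference over the root of F. Fold changes follow the TMM scaling and can depart from ratios of plain CPM. Per-cell measures were compared as plate medians by flipping the signs of plate differences (100000 permutations, two-sided). Doublets were not called, because each well was filled by hand with a single cell. All 384 barcodes, in 4 sets of 96, recur on 4 or 5 plates. All wells carried 1 instrument and run. Clusters were made with scanpy 1.11.5 and leidenalg 0.10.2 (2000 variable genes, 30 components, 30 neighbours, resolution 1). Intervals and floors cover counting error only.

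Genes were named by a rule: adjusted p under 0.05, a log2 difference of at least 1, a mean of 20 CPM or more in the class with the higher level, and the same direction on 80% of plates. The 12 largest each way and up to 3 of each list were taken, with genes past the limits against every type and 15 genes named whatever the test gave. Other list members and the genes of contrasts with single types were named after their values were seen. The tests were checked on simulated data. Alternatives included DESeq2 1.42.0, other scalings and filters, no block, stricter classes, thinning and each plate left out. A few genes that the rule or a list count takes in are not reported here.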

Additional observations from a re-analysis of the deposited data

Results flagged for a closer look

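A signal appeared in a row that names no mouse gene. WPRE, a viral RNA element carried by the Ai9 reporter, had a count in 66 of 283 Met Sema3e cells (23.3%, exact 95% interval 18.5 to 28.7) and in 267 of 785 other Hcrt cells (34.0%, 30.7 to 37.4), in 21.7% of 466 other LHA cells (18.02 to 25.7), against 1 of the wells with spike-ins only or nothing (0.962%, 0.0243 to 5.24). The median depths were 40673, 48220, 27452.5 and 172 UMIs, in that order. No comparison above uses this row. Per plate the share was lower in Met Sema3e cells than in the other Hcrt cells on 15 of 19 plates, at depths that were unequal. The tdTomato row had a count in 3 Met Sema3e cells (1.06%, 0.219 to 3.07) and in 4 other Hcrt cells (0.510%, 0.139 to 1.30). The source of the WPRE counts was not tested.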

How the results depend on the processing

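In the pooled comparison, where 2.8% of genes were higher and 3.87% lower, DESeq2 called 4.54% higher; with no filter on low counts 0.306% were higher and 1.91% lower (712 of 37263 genes); and in cells thinned to 21000 UMIs 2.17% were higher and 2.42% lower of the 5382 genes that could be tested. With 1 plate left out 2.35% to 2.79% were higher and 3.29% to 3.96% lower. With no replicate block 161 genes were lower in the pooled comparison (1.92%), 92 differed from Prkch and 205 from Gpc3 cells; plate numbers pair the sums because both classes come from the same plate, and of the named genes the block changed the call of Scg2 (adjusted p = 0.0915 without it). Genes higher than each type numbered 0 with a margin of 0.5, with z-scores within plates, with Hcrt at 5% and after thinning, where Dpy19l1 was untested in the first and the last, and 0 to 1 with a plate left out (0 without plate 19). Genes lower than each numbered 7 with no filter, 5 with the margin, 1 after thinning and 2 to 6 with a plate left out (6 without plate 15). Against Pth2 cells 681 genes were called with the margin, 700 after thinning and 1037 to 1148 with a plate left out; against Gpc3 cells 257, 246 and 332 to 425; against Prkch cells 165 to 205 with a plate left out. The mitochondrial difference passed with the margin (0.18 percentage points, adjusted p = 0.0260) and with plate means (0.15, adjusted p = 0.0191), and ran from 0.034 to 0.083 with a plate left out. With a plate left out the left-out panel genes ran from 1.70 to 1.91 (Met), 1.43 to 1.55 (Sema3e), 0.93 to 1.06 (Pde3a), 0.78 to 0.92 (Chst8) and 0.91 to 0.98 (Lmo2), UMIs per cell from -10856 to -7844, genes at fixed depth from -66.0 to -47.8, Hcrt from -0.57 to -0.29 and ERCC from 0.46 to 0.58 percentage points. The causes of these shifts were not tested. Among values of named genes under the alternatives other than a plate left out, 423 kept direction and call, 6 lost and 4 gained the call, and 2 near 0 (Hcrt, Rfx4) changed sign without passing; 591 list counts stayed within 1.5 times and 81 did not. With a plate left out, Scg2 lost its call for 12 plates and Nts reached -4.38 (without plate 12). The shallowest sum of Met Sema3e cells on a plate held 275638 UMIs, which limits genes of low level, and such genes were not tested.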
